A study of Homo sapiens with 12 samples.

Results

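The 55 genes described here lie on the long arm of chromosome 18 (18q) and were listed because the arm was lower in CD99 transfectants of the osteosarcoma line SaOS-2 than in the parental cells. They were therefore chosen by the differences between the lines, and those differences are given as a description with no test. Each gene was read from 1 probe set, that is, 1 group of array probes summarised together: the one that named this gene alone and had the highest mean over the 12 arrays. Such a probe set was found for 54 of the 55 genes, out of 224 genes of 18q and 19775 genes in the whole table; RNF125 was not analysed here. NARS is read under its current name, NARS1.

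SaOS-2 is an established human osteosarcoma line. Clones wt22 and wt36 were isolated from it after stable transfection with CD99, a cell surface glycoprotein, by calcium phosphate and selection in neomycin. Parental cells labelled as not transfected were the comparison, so transfection, drug selection and cloning separated both clones from their control together with CD99. Total RNA was taken at day 0 and after 7 and 14 days in osteogenic medium and hybridized to Affymetrix arrays, with 2 SaOS-2 arrays and 1 array of each clone on each of the 3 days. The label CD99 was checked first. On 1 of the 2 CD99 probe sets the SaOS-2 arrays read 11.26 to 11.88 (log2) and the arrays labelled Sa/CD99 only 6.67 to 8.88, which goes against the label. On the other, all 12 arrays read 12.29 to 12.74. CD99 was also measured by real-time PCR in the study, a measurement not analysed here. Of the osteoblast markers RUNX2, SP7, ALPL, COL1A1, IBSP, SPP1, BGLAP and DLX5, 7 were measured and 6 passed the signal filter, and SPP1 did not. Of the 9 measured epithelial, haematopoietic, endothelial and neuronal markers, 1 passed (EPCAM, 7.22 to 8.68).

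Genes on a chromosome arm are inherited together, and gain or loss of arms and of whole chromosomes is common in osteosarcoma, whose karyotypes are complex and vary between cells of a culture. A clone grows from few cells and carries whatever chromosomes those cells had. Messenger RNA of a gene often follows its number of copies, though not in proportion for every gene. Neither DNA copy number nor karyotype was measured in these arrays, and the relation of the values below to copy number was not tested. The 55 genes have no common pathway: they include chromatin and transcription factors, enzymes, signalling adaptors, ubiquitin ligases and components of the secretory route.

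Over the 54 measured genes, the median log2 difference of the clones from the SaOS-2 mean of the same day was -0.49 at day 0, -0.58 at day 7 and -0.52 at day 14, which are 1.41-fold, 1.49-fold and 1.44-fold lower. Over all 12894 probe sets tested the medians were -0.01, -0.03 and -0.01. The medians of clone wt22 were -0.50, -0.57 and -0.55, and those of clone wt36 were -0.50, -0.55 and -0.55. In clone wt22, 45, 51 and 50 of the 54 genes lay below the SaOS-2 mean on the 3 days, and in clone wt36, 53, 51 and 52. Both clone arrays lay below both SaOS-2 arrays for 43 genes at day 0, 47 at day 7 and 48 at day 14. That arrangement was found for 23.0%, 31.8% and 28.0% of the probe sets tested, and since this contrast chose the genes nothing is read from their excess. It held on each of the 3 days for 40 of the 54 genes, beside 8.96% of probe sets tested, and on none of the days for SNRPD1, SS18, ZNF236 and NFATC1. The difference was small for a single gene: at the mean of both clones and 3 days, 24 of the 54 genes were at least 1.5-fold lower, beside 2.61% of probe sets tested.

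**Figure D1:**
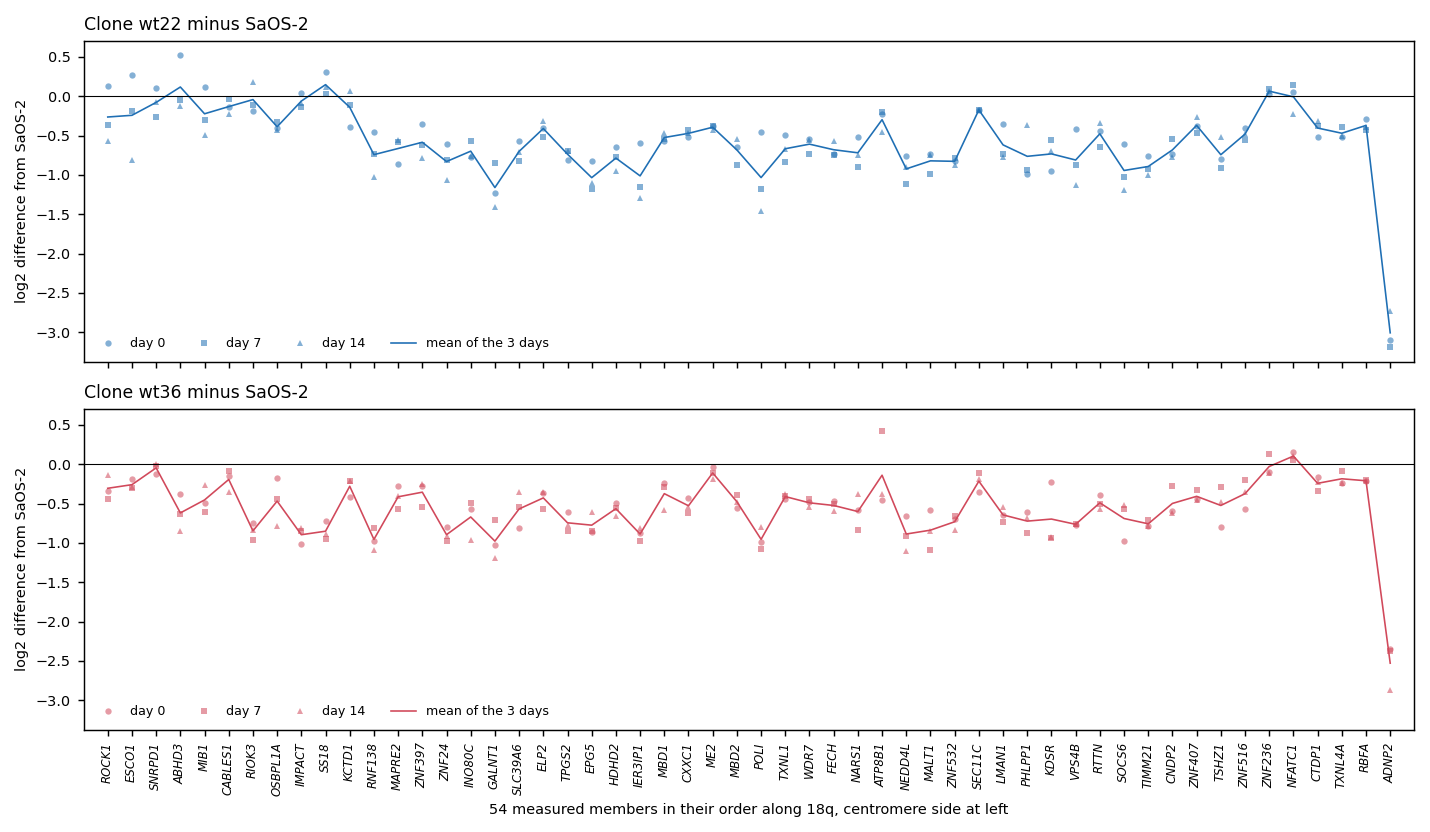
Log2 difference of each clone from the mean of the 2 SaOS-2 arrays of the same day (y axis) for the 54 measured genes in their order along 18q (x axis). Points are days 0, 7 and 14 and the line is their mean. In clone wt22, at the mean of the days, the first 11 genes, ROCK1 to KCTD1, have a median of -0.13. The 43 that follow sit lower (median -0.68). In clone wt36 the medians are -0.45 and -0.53, and ADNP2 is the lowest point in both panels.

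Ubiquitin ligases, which attach ubiquitin to proteins and so mark them for degradation or sorting, had the most negative median of the 7 groups of function, -0.85 over 3 measured genes at the mean of both clones and 3 days. With 3 genes that median is the value of 1 of them, RNF138. The groups were made by hand from genes chosen by this contrast, so nothing about function is read from their order. NEDD4L, a ligase that limits sodium channels at the cell surface, read 8.30 and 8.09 in SaOS-2 at day 0, 8.52 and 8.42 at day 7, and 8.67 and 8.59 at day 14. Clone wt22 read 7.44, 7.36 and 7.73 on those days, and clone wt36 7.54, 7.57 and 7.53. All 6 clone arrays of NEDD4L lay below all 6 SaOS-2 arrays, by 1.87-fold at the mean. RNF138, a ligase that acts in the repair of DNA double-strand breaks, differed by -0.85. MIB1, which ubiquitinates Notch ligands, differed by -0.34.

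Genes of the secretory route, membrane traffic and autophagy had a median of -0.71 over 8 genes, all 8 below 0. GALNT1, the enzyme that starts mucin-type O-glycosylation in the Golgi, read 10.12 and 10.17 in SaOS-2 at day 0, 9.57 and 9.55 at day 7, and 9.67 and 9.62 at day 14. Clone wt22 read 8.92, 8.72 and 8.23, and clone wt36 9.12, 8.85 and 8.45. The groups of arrays did not overlap on any day, and GALNT1 was 2.10-fold lower at the mean. IER3IP1, a small protein of the endoplasmic reticulum, ranged from 9.64 to 10.14 in SaOS-2 and from 8.39 to 9.23 in the clones (1.93-fold lower). LMAN1, a cargo receptor that carries glycoproteins from the endoplasmic reticulum to the Golgi, had the highest signal of the group and differed by -0.63. EPG5, which acts in fusion of autophagosomes with lysosomes, and VPS4B, the ATPase that recycles ESCRT complexes, differed by -0.91 and -0.79. Every clone array of EPG5 lay below the signal filter (6.64 in log2), at 5.44 to 6.12, so the size of its difference is uncertain. SEC11C, a subunit of the signal peptidase, and ATP8B1, a lipid flippase, were near the least changed of the list (-0.20 and -0.22).

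Genes of metabolism, transport and mitochondria had a median of -0.60 over 9 genes, all below 0 at the mean of both clones. TXNL1, a thioredoxin-like protein bound to the proteasome, had the highest signal among them. It ranged from 10.98 to 11.28 in SaOS-2 and from 10.23 to 10.78 in the clones, with no overlap on any array. TIMM21 (-0.83), of the mitochondrial import machinery, KDSR (-0.72), which makes a sphingolipid precursor, SLC39A6 (-0.64), a zinc importer, FECH (-0.60), the last enzyme of haem synthesis, and CNDP2 (-0.59), a dipeptidase, differed by between -0.83 and -0.59. ME2, the mitochondrial malic enzyme, and ABHD3 were the least changed of the group at that mean, both at -0.25. For ABHD3 the mean joins opposite signs, 0.12 in clone wt22 and -0.62 in clone wt36. ME2 was at -0.39 and -0.11.

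Chromatin proteins, DNA repair proteins and transcription factors formed the largest group, with a median of -0.47 over 17 genes, 16 of them below 0. ADNP2, a homeobox and zinc finger protein, stood apart from every other gene of the list. It read 7.65 and 7.69 in SaOS-2 at day 0, 7.37 and 7.43 at day 7, and 7.49 and 7.31 at day 14. Clone wt22 read 4.56, 4.21 and 4.67, and clone wt36 5.31, 5.03 and 4.54. The difference of the deposited values was -2.77, while the next largest, that of GALNT1, was -1.07. All 6 clone arrays of ADNP2 lay below 6.64, the log2 value of the signal filter, and near or below the medians of the arrays (5.25 to 5.31), so the size of its difference is uncertain and no fold is given. It passed the signal filter through its SaOS-2 arrays alone, as WDR7, RTTN and SOCS6 also did. The second ADNP2 probe set differed by -2.92. Among the others, POLI, a polymerase that copies past damaged bases (-0.99), had low signal on every array (3.49 to 5.64). ZNF24 differed by -0.86, MBD2 and MBD1, which bind methylated CpG, by -0.58 and -0.45, and CXXC1, which binds unmethylated CpG, by -0.50. CXXC1 had the highest signal of the group and ranged from 9.75 to 9.99 in SaOS-2 and from 9.17 to 9.51 in the clones. ZNF236 was at 0.02, with the arrays of the lines overlapping on days 0 and 14 and both clones above SaOS-2 at day 7.

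Signalling and adaptor proteins had a median of -0.42 over 8 genes. MALT1, a protease of the NF-kB pathway in lymphocytes, ranged from 6.84 to 7.63 in SaOS-2, and every clone array was lower, at 6.71 or less. SOCS6, of the family of suppressors of cytokine signalling, differed by -0.82, and PHLPP1, a phosphatase of AKT, by -0.74. Every clone array of both genes lay below the signal filter, at 6.60 or less, so the size of these differences is uncertain. CABLES1, an adaptor of cyclin-dependent kinases, differed by -0.16, and NFATC1, a calcium-dependent transcription factor, by 0.05.

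The 3 genes of cytoskeleton and centrosome had a median of -0.54. TPGS2, a subunit of the tubulin polyglutamylase, ranged from 10.29 to 10.72 in SaOS-2 and from 9.44 to 10.07 in the clones. Genes of RNA processing, ribosome and translation had the least negative median, -0.39 over 6 genes. Of these, SNRPD1, RIOK3 and IMPACT lie among the first 11 genes along the arm. SNRPD1, a core protein of the spliceosome, had the highest signal of the list and differed by -0.06. At day 0 its SaOS-2 arrays read 11.20 and 11.32, and clones wt22 and wt36 read 11.36 and 11.13, so the lines overlapped. NARS1, the asparaginyl-tRNA synthetase, differed by -0.66.

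The differences were also set against the level of the genes. In the 18 genes of lowest mean signal the median of both clones was -0.48, in the middle 18 it was -0.40, and in the 18 of highest signal -0.59. Across the 54 genes, the difference of both clones and the SaOS-2 mean had a Pearson r of 0.003 and a Spearman rho of -0.12. Without ADNP2 they were -0.10 and -0.14. These are descriptions across genes that share the same 12 arrays, and the SaOS-2 arrays enter both measures.

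**Figure D2:**
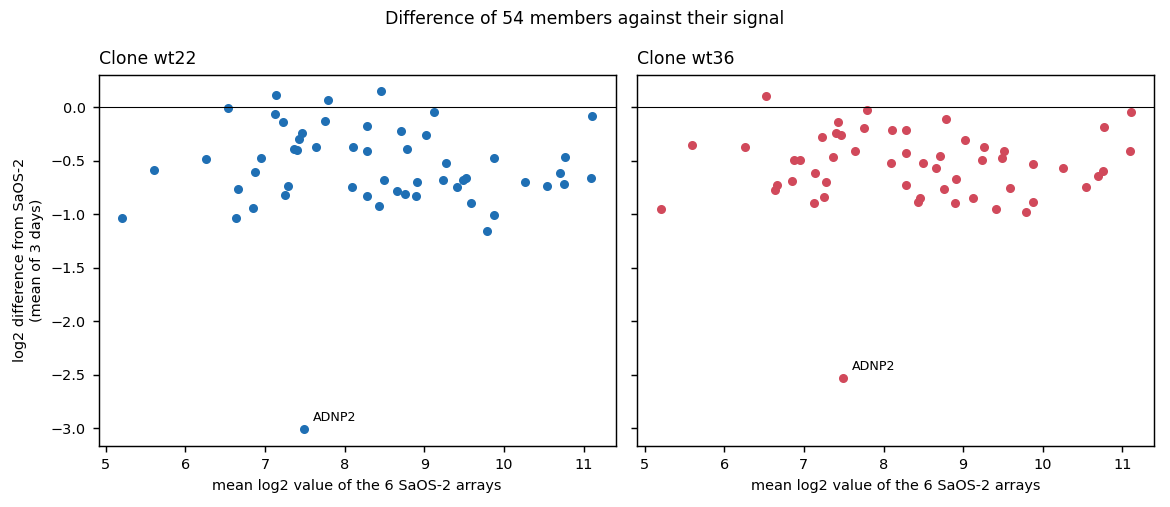
Mean log2 difference of each clone from SaOS-2 over 3 days (y axis) against the mean log2 value of the 6 SaOS-2 arrays (x axis), 1 point per gene for 54 genes. The points of low and of high signal cover the same range of differences, and ADNP2 is the lowest point in both panels.

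Other probe sets of the same genes were not used to pick the values. They share arrays and transcripts with the chosen probe sets, so they are no independent samples. Of 113 such probe sets, which covered 48 genes, 91 lay below 0 at the mean of both clones and 3 days, with a median of -0.30. Of the 40 that passed the signal filter, 39 lay below 0, and their median was -0.56. The exception was a probe set of ROCK1 at 0.08.

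Along the arm, the clones parted near the centromere. Genes were placed in the order of a reference gene table, from ROCK1 at the centromere side to ADNP2 near the end of the arm. In clone wt22 the median over 3 days was -0.25 in the first 18 genes, -0.70 in the next 18 and -0.55 in the last 18, whereas in clone wt36 it was -0.52, -0.55 and -0.50. The lower part of the wt22 profile began after KCTD1, a boundary chosen after the values were seen. From ROCK1 to KCTD1 (11 genes) the median of clone wt22 was -0.13, with 9 genes below 0, and that of clone wt36 was -0.45, with all 11 below 0. From RNF138 to ADNP2 (43 genes) the medians were -0.68 and -0.53. Lower in both clones therefore described the first 11 genes only in part. In clone wt22, at the mean of 3 days, ABHD3 (0.12) and SS18 (0.15) were above SaOS-2. The other 9 were below it, from -0.04 for RIOK3 to -0.39 for OSBPL1A. Single genes varied by day in wt22, which was not tested. ROCK1 was at 0.13, -0.36 and -0.57, ESCO1 at 0.27, -0.19 and -0.82, and MIB1 at 0.12, -0.30 and -0.49. OSBPL1A was at -0.41, -0.33 and -0.43. At day 14, RIOK3 (0.18), SS18 (0.11) and KCTD1 (0.07) were above SaOS-2.

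Genes of chromosome 18 outside the list were set beside them by the same probe set rule. Over the 41 other genes of 18q that passed the signal filter, the median of both clones was -0.63. Over the 41 such genes of the short arm (18p) it was -0.04, and over 9599 genes of other chromosomes 0.02. ATP5F1A, a subunit of the mitochondrial ATP synthase and the gene of highest signal among the others of 18q, differed by -0.49 in clone wt22 and -0.42 in clone wt36. TYMS, the thymidylate synthase and the gene of highest signal on 18p, differed by -0.04 and -0.19. Between ROCK1 and KCTD1 there were 3 other genes, with medians of 0.12 in clone wt22 and -0.55 in clone wt36. Beyond KCTD1, 38 other genes had medians of -0.71 and -0.56. These medians use the boundary chosen above and are a description, with no test. The arm was chosen for its lower values in the transfectants, so its other genes share that contrast and are no independent comparison. Some of low signal may also have passed the signal filter through SaOS-2 arrays alone.

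**Figure D3:**
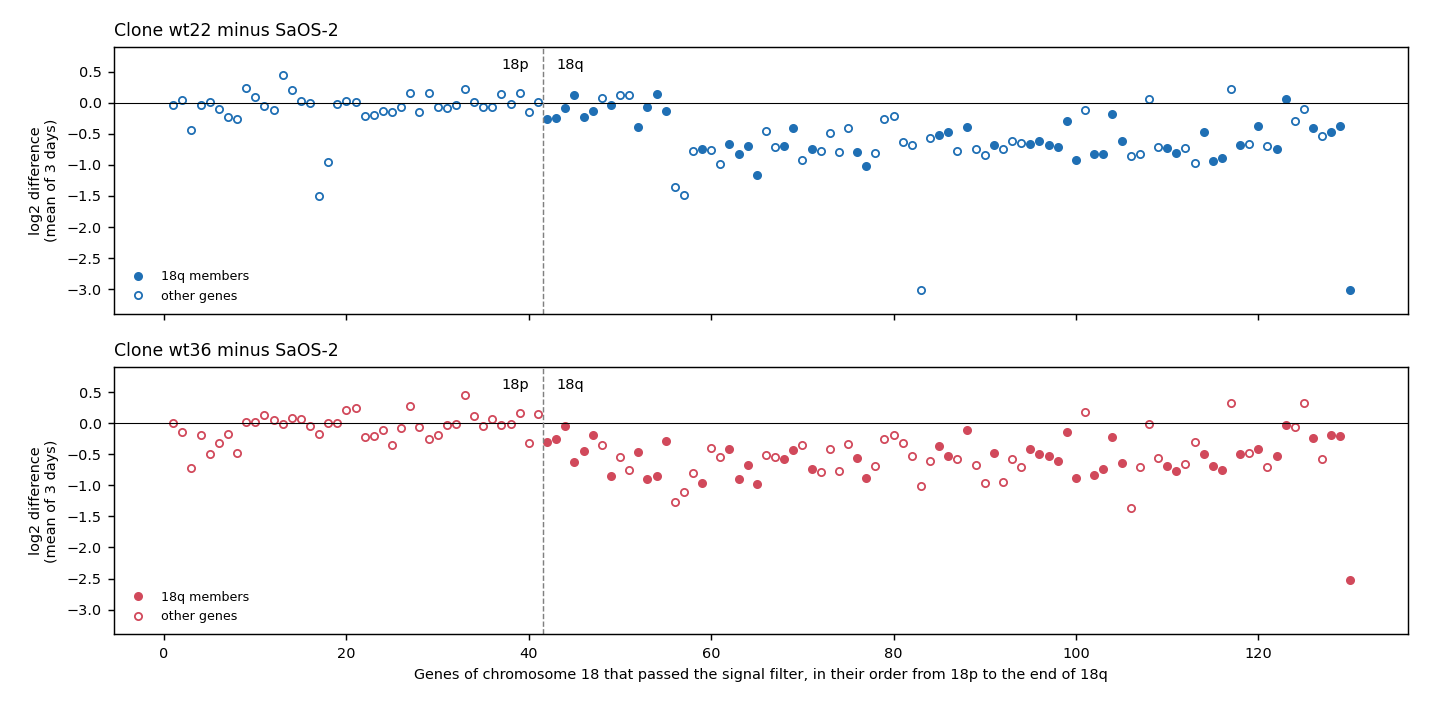
Mean log2 difference over 3 days (y axis) of each clone from SaOS-2 for the genes of chromosome 18 that passed the signal filter, in order from the tip of 18p to the end of 18q (x axis). Filled points are genes of the list and open points other genes. The 18p genes centre near 0 in both clones (medians -0.04 and -0.02). At ROCK1, the first gene of 18q, the clones are alike (-0.26 in wt22 and -0.31 in wt36). They part some genes further on, as at RIOK3 (-0.04 and -0.85) and SS18 (0.15 and -0.85), and wt22 falls later along the arm.

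The clones were compared with each other by a test, since this contrast was not the one that chose the genes. A term for the clone, common to the 3 days, was fitted across all 12894 probe sets with limma, and a probe set was called at a Benjamini-Hochberg adjusted p of at most 0.05 and a change of at least 1.5-fold. Of the 45 listed genes tested, 4 were lower in wt36 than in wt22 and none was higher, which is 8.89% of them. Of all probe sets tested, 3.51% were lower, 2.27% higher and 5.78% called in either direction. At an unadjusted p of 0.05, 14 of the 45 differed, beside 32.8% of all probe sets tested. The median SE was 0.09. The 4 genes, ABHD3, RIOK3, IMPACT and SS18, all lie among the first 11 along the arm.

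SS18, a subunit of the BAF chromatin remodelling complex and the fusion partner of SSX genes in synovial sarcoma, read 8.45 and 8.66 in SaOS-2 at day 0, 8.55 and 8.53 at day 7, and 8.28 and 8.25 at day 14. Clone wt22 read 8.86, 8.57 and 8.37 on those days, above both SaOS-2 arrays each time. Clone wt36 read 7.83, 7.60 and 7.37, below both each time. The difference of wt36 from wt22 was -0.998 (SE 0.07, limma adjusted p = 4.79e-05).

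IMPACT, which restrains the GCN2 kinase of the amino acid response, read 7.11 and 7.08 in SaOS-2 at day 0, 7.26 and 7.18 at day 7, and 7.02 and 7.13 at day 14. Clone wt22 read 7.14, 7.08 and 6.98, close to SaOS-2, and clone wt36 read 6.07, 6.37 and 6.26. The clones differed by -0.83 (SE 0.08, limma adjusted p = 0.000264). Every wt36 value lay below 6.64, the log2 value of the signal filter, so the size of this difference is uncertain.

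RIOK3, an atypical kinase that acts in maturation of the small ribosomal subunit, read 9.23 and 9.36 in SaOS-2 at day 0, 9.21 and 9.18 at day 7, and 8.85 and 8.90 at day 14. Clone wt22 read 9.10, 9.08 and 9.05, and clone wt36 8.55, 8.23 and 8.04. Clone wt22 was a little below SaOS-2 on the first days and above it at day 14, while clone wt36 was below on all 3. The clones differed by -0.80 (SE 0.09, limma adjusted p = 0.000436).

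ABHD3, a phospholipase, read 6.77 and 6.81 in SaOS-2 at day 0, 7.28 and 7.53 at day 7, and 7.19 and 7.26 at day 14. Clone wt22 read 7.31, 7.36 and 7.10, and clone wt36 6.41, 6.77 and 6.38. Clone wt22 was above SaOS-2 at day 0 alone, and clone wt36 was below on all 3 days. The clones differed by -0.74 (SE 0.09, limma adjusted p = 0.000613).

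Further probe sets of RIOK3 and SS18 were tested, 3 of each, and did not all show the difference. For RIOK3, 2 were lower in wt36 (-0.86 and -0.67), and the third showed no clone difference beyond its error (-0.01, SE 0.10, limma adjusted p = 0.972). For SS18, 2 were called lower (-0.99 and -0.79), and the other was at -0.52, under the 1.5-fold threshold (adjusted p = 0.00121). The other genes of the stretch were not called. For ROCK1 the clones differed by -0.04, for ESCO1, an acetyltransferase of cohesin, by -0.02, for CABLES1 by -0.06, for OSBPL1A, an oxysterol-binding protein, by -0.08 and for MIB1 by -0.23, with limma adjusted p from 0.267 to 0.953. The chosen probe sets of SNRPD1 and KCTD1 failed the filter on spread and were not tested. Another probe set of each was tested and neither was called. It was at -0.07 for SNRPD1 and at -0.29 for KCTD1 (limma adjusted p = 0.0410), under the 1.5-fold threshold. The 45 genes include ADNP2, WDR7, RTTN and SOCS6, whose clone arrays all lay below the signal filter, and nothing is read from the clone difference of these genes. Each clone is 1 line with 1 array a day, so these p-values measure the spread over days and between the parental arrays, not that between independent clones.

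**Figure D4:**
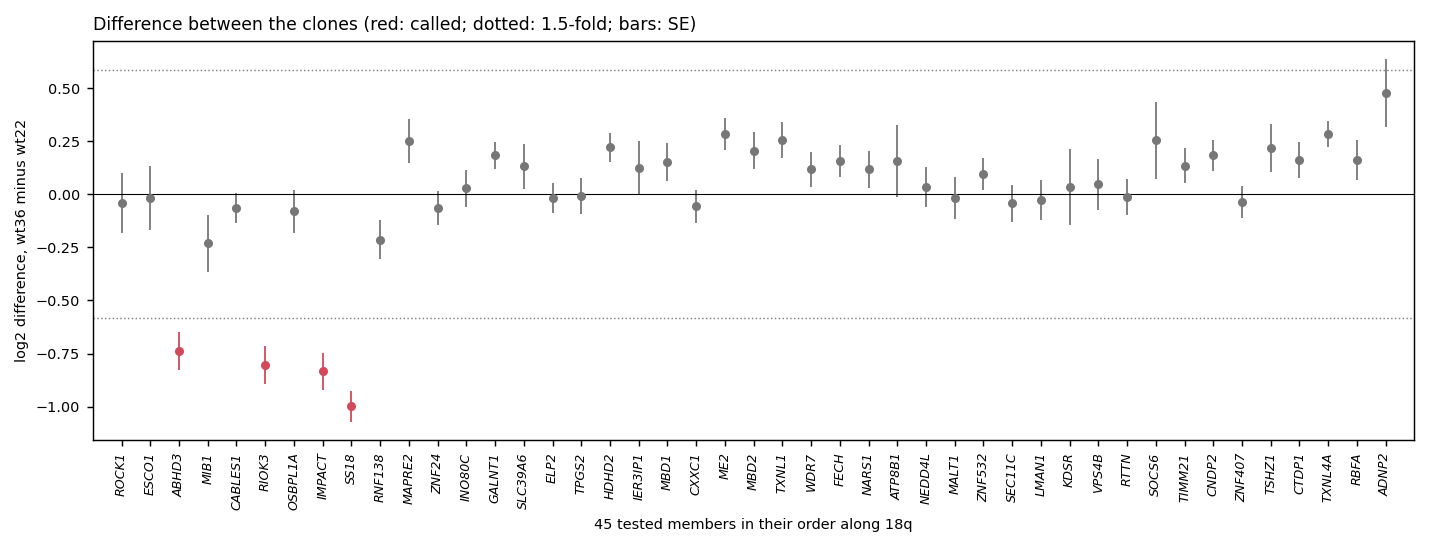
Log2 difference of clone wt36 from clone wt22, common to the 3 days (y axis, bars are the SE of the fit), for the 45 tested genes in their order along 18q (x axis). The 4 called genes (red) lie at -0.74 to -0.998 among the first genes of the arm, beyond the dotted line of 1.5-fold change, and the other genes lie inside both dotted lines.

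Within each line, the days were compared with the same thresholds in a fit of 6 group means. These tests share arrays with the differences between the lines but do not use them. In SaOS-2, 11 of the 45 genes were called in at least 1 of the 3 comparisons of days, in the arrays labelled Sa/CD99 also 11, and 7 in both, beside 5032, 4642 and 3664 of the 12894 probe sets tested, which are larger shares. Between days 0 and 7 of SaOS-2, 5 were called (11.1%, beside 21.4% of probe sets tested), between days 0 and 14, 3 (6.67% beside 14.9%), and between days 7 and 14, 6 (13.3% beside 22.9%). In the clones the same counts were 3 (6.67% beside 18.2%), 6 (13.3% beside 19.4%) and 6 (13.3% beside 18.6%). The shares of these genes lay below the background in all 6 comparisons, though the filter on spread also let genes through by their difference between the lines.

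ESCO1, ZNF24 and MIB1 peaked at day 7 in SaOS-2. ESCO1 read 7.17 and 7.16 at day 0, 8.14 and 8.01 at day 7, and 7.21 and 7.10 at day 14, and the clones read 7.43 and 6.97, then 7.89 and 7.78, then 6.34 and 6.86. It rose by day 7 in SaOS-2 (0.91, SE 0.19, limma adjusted p = 0.0054) and in the clones (0.63, adjusted p = 0.0281). The changes from day 7 to day 14 were -0.92 and -1.23 (adjusted p = 0.00468 and 0.00187). ZNF24 read 8.71 and 8.77, then 9.42 and 9.44, then 8.53 and 8.48 in SaOS-2, and 8.13 and 7.94, then 8.62 and 8.46, then 7.44 and 7.59 in the clones. It rose by 0.69 in SaOS-2 by day 7 (adjusted p = 0.0015), and its changes from day 7 to day 14 were -0.92 in SaOS-2 and -1.02 in the clones. The lines thus kept apart on every day while both moved with time. MIB1 rose by day 7 in SaOS-2 (0.75, adjusted p = 0.0129) and fell after it in SaOS-2 (-0.85) and in the clones (-0.77).

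SEC11C fell by day 7 in both lines. It read 8.64 and 8.86 at day 0 in SaOS-2 and 7.89 on both arrays at day 7, and 8.58 and 8.40, then 7.72 and 7.78, in the clones. The changes were -0.86 (SE 0.11, limma adjusted p = 0.000699) and -0.74 (adjusted p = 0.00143). INO80C, of the INO80 chromatin remodelling complex, fell in SaOS-2 (-0.62). From day 0 to day 14, SOCS6 fell in SaOS-2 (-0.85, adjusted p = 0.0287). Both SaOS-2 arrays of day 14, at 6.51 and 6.21, lay below the signal filter, so the size of this fall is uncertain. In the clones SOCS6 is among the genes counted as called. All 6 clone arrays lay below the signal filter, at 5.17 to 6.60, and no change is read from them. SLC39A6 fell (-0.63) and OSBPL1A rose (0.63) in SaOS-2 alone by this test; the difference between the lines was not called. Over the same days GALNT1 (-0.68), LMAN1 (-0.65), RNF138 (-0.69), VPS4B (-0.61) and ESCO1 (-0.60) fell in the clones. From day 7 to day 14 ROCK1 fell in both lines (-0.72 and -0.66). LMAN1 (-0.62) and MALT1 (-0.76) fell over those days in SaOS-2, and RNF138 (-0.77) and ATP8B1 (-0.91) in the clones, where ATP8B1 had risen by 0.86 from day 0 to day 7. ATP8B1 read 7.06 in wt22 and 6.83 in wt36 at day 0, then 7.48 and 8.11, then 6.86 and 6.93.

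Of the 29 calls between days, 12 held when each array was left out in turn and 17 did not. Those that held were all 3 calls of ZNF24, the calls of ESCO1 between days 7 and 14 in both lines and between days 0 and 7 in SaOS-2, both of SEC11C, those of MIB1 and MALT1 between days 7 and 14 in SaOS-2, that of RNF138 between days 7 and 14 in the clones, and that of INO80C. Without SaOS-2 replicate 1 of day 14, 6 of the 11 genes called in SaOS-2 remained, and LMAN1, OSBPL1A, ROCK1, SLC39A6 and SOCS6 were lost. Without clone wt22 at day 14, 6 genes were called in the clones, 5 of them from the 11, and GALNT1, LMAN1, MIB1, ROCK1, SOCS6 and VPS4B were lost. The day 14 change of ESCO1 from day 0 in the clones was not called without any 1 of 6 arrays, and was -0.34 without clone wt22 at day 14 and -0.37 without it at day 0. Without clone wt36 at day 7, both calls of ATP8B1 were lost, and its changes were 0.54 and -0.59. Without clone wt22 at day 0 the RNF138 change from day 0 to day 14 was -0.43 and was not called.

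**Figure D5:**
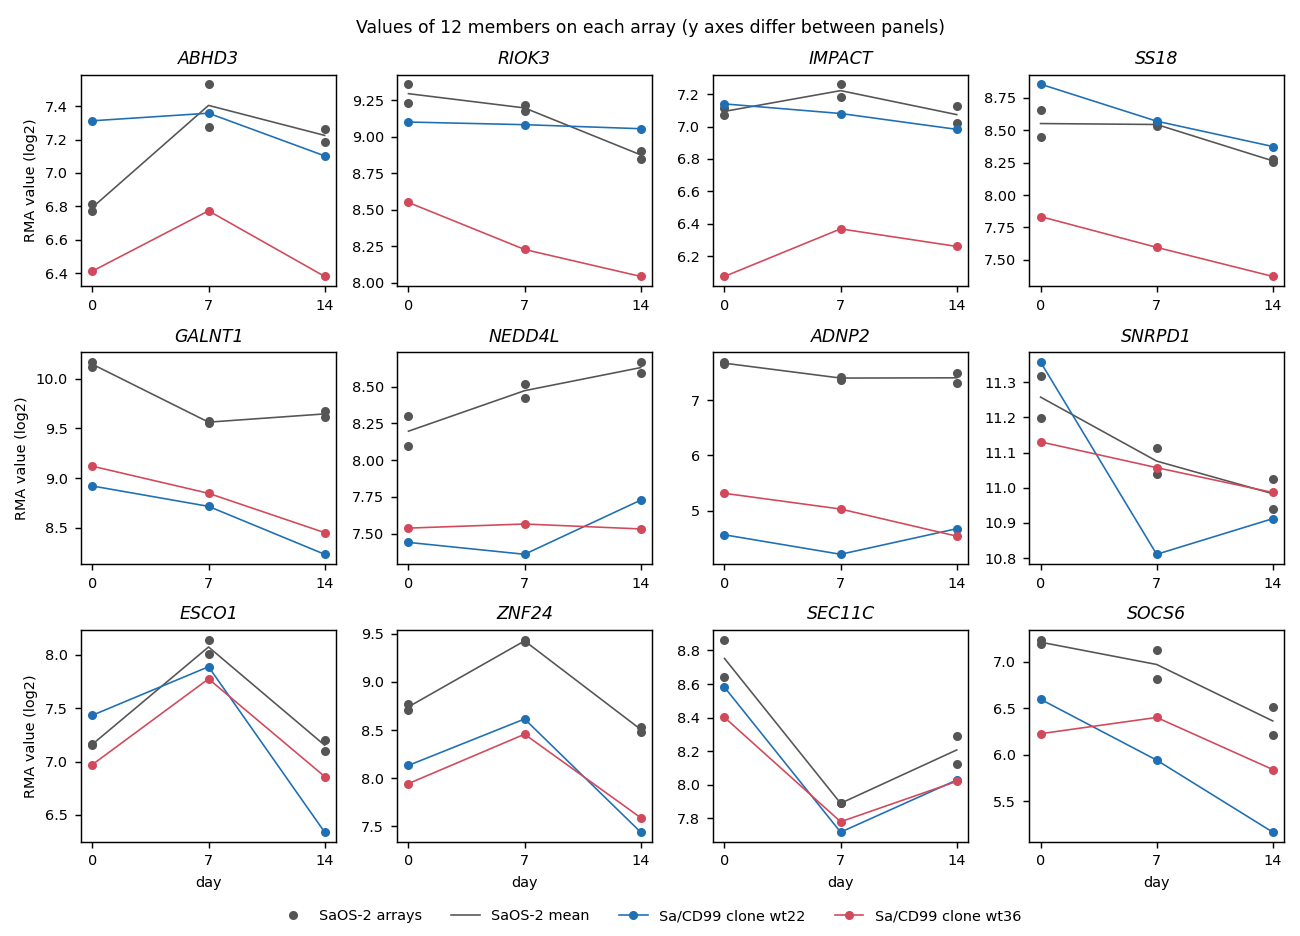
Log2 values of 12 listed genes on every array (y axis, scales differ between panels) by day (x axis). Grey points are the 2 SaOS-2 arrays with their mean as a line, blue is clone wt22 and red clone wt36. In the top row wt36 lies below SaOS-2 on every day. There wt22 lies near SaOS-2 or above it, furthest for ABHD3 at day 0 (0.52 above the SaOS-2 mean). GALNT1, NEDD4L and ADNP2 are lower in both clones on every day, SNRPD1 is not, and ESCO1 and ZNF24 peak at day 7 in both lines.

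Whether the difference between the lines moved with time was asked with the interaction of line and day in the same fit. None of the 45 genes was called for day 7 or day 14 by limma, beside 0.0% and 0.0155% of all probe sets tested. None reached an unadjusted p of 0.05 on either day, beside 4.22% and 3.62% of all probe sets tested. The medians of the interaction over the 45 genes were -0.06 and -0.07, with a median SE of 0.20. A call also needed a change of at least 1.5-fold and the adjusted p. Changes of the difference well above that SE could therefore go uncalled too, and absence of a call is not read as absence of a change.

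The spread between the clones was larger than that between the parental arrays. Over the 54 genes the SD of the difference between the 2 SaOS-2 arrays was 0.15, 0.11 and 0.12 on the 3 days, and that between the clones was 0.38, 0.33 and 0.36. Over all probe sets tested these were 0.14, 0.13 and 0.12, and 0.39, 0.41 and 0.42. With the fit of 6 group means, 12, 18 and 15 of the 45 genes were called lower in the transfectants on days 0, 7 and 14, beside 1.37%, 1.43% and 1.32% of probe sets tested. These counts are a description, since the contrast chose the genes. Without SaOS-2 replicate 1 or 2 of the day most of these calls were lost. At days 0 and 7, so were most calls of lower values over all probe sets tested. The median over the 45 genes moved little, to -0.50 or -0.54 at day 0 and -0.57 or -0.59 at day 7. With all arrays it was -0.51 and -0.58. The SE of the differences rose in these fits. Without a SaOS-2 array of another day the counts were lower, and without a clone array of another day the same or higher. Without a clone array of the same day they were lower, except without clone wt36 at day 14, where the count was higher.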

How the data were processed

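Total RNA was hybridized to 12 Affymetrix arrays in 6 groups of 2. Per the submitters' processing notes, the log2 values deposited by the authors came from affy and RMA (background correction, quantile normalization, summary of probes). Versions of affy and RMA and a genome build for these values are not given in the sources used here. Of 54675 probe sets, 62 controls were left out. Those with a signal of 100 or less on at least 9 arrays and those with an interquartile range not above the median were dropped, which left 12894. These filters and the thresholds follow the study's methods. The number of arrays limits the precision.

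Probe sets were named from the platform annotation, updated by gene ID (41037 of 41091 with 1 gene matched; 1801 had several genes and 11721 none). The order along the arm came from the GRCh38.p14 gene table, and coordinates were left out, as the sources name no build for the array design. Of 54 measured genes, 48 passed the signal filter and 45 were tested. ZNF397, EPG5, POLI, PHLPP1, ZNF516 and NFATC1 failed the signal filter, and SNRPD1, KCTD1 and ZNF236 that on spread. Groups of function were assigned by hand.

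Tests used limma 3.58.1 in R 4.3.3 (lmFit, eBayes) with 6 group means, or with these and 1 clone term, all p-values adjusted over all probe sets tested. Residual and prior degrees of freedom were 6 and 3.183 in the fit of group means, and 5 and 4.137 in that with the clone term. Separate cultures are not stated for the paired SaOS-2 arrays, and the spread behind the p-values may thus be technical. A clone number marks the same line on each day. Across probe sets, the r of the clone difference from one day to another was 0.58, 0.32 and 0.63, and for the parental numbers r was -0.04, 0.24 and -0.05. On simulated data the clone test called 17 of 50 probe sets changed 1.5-fold and 45 of 50 changed 2-fold, over 12894 probe sets.

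The genes, their groups, the marker lists and the alternatives were chosen with earlier results of these data known. Genes are named in the text with their values if they had the highest signal of their group of function, the 5 most or 5 least negative differences, or a call between days or clones; others are given by group or by difference alone. Alternatives tried were array centring, quantile normalization of tested probe sets, the mean of all probe sets of a gene, other filters, a trend, array weights, a replicate block, fits of part of the arrays, and each array left out.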

Additional observations from a re-analysis of the deposited data

Results flagged for a closer look

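In 4 genes of the list the clones differed from each other in their shift from SaOS-2 under the same contrast, by the limma test of the difference between clones. The log2 differences of wt36 from wt22 were -0.998 for SS18, -0.83 for IMPACT, -0.80 for RIOK3 and -0.74 for ABHD3. Clone wt36 lay below clone wt22 on all 3 days for each of them. They were called under all 19 alternatives run.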

How the results depend on the processing

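No result changed direction under any alternative. The 4 genes that differed between clones were called throughout, and the count was 4 or 5; the fifth was ADNP2, with array weights and without either clone array of day 14, from which nothing is read as its clone arrays lay below the signal filter. The interaction count stayed at 0. With the clone or replicate number as a replicate block, 12 genes were called with time in SaOS-2, 11 in Sa/CD99 and 0 for the interaction. Array weights gave 7 in Sa/CD99, without ATP8B1, ROCK1, SOCS6 and VPS4B. Quantile normalization of tested probe sets gave 8 there, without GALNT1, LMAN1, SOCS6 and VPS4B and with ADNP2 added. Between days 0 and 14 in Sa/CD99, the 6 genes called became 1 after that normalization and 3 with array weights. Leaving out 1 array gave 6 to 13 in SaOS-2 and 6 to 15 in Sa/CD99. The median of both clones at day 0 was -0.47 after quantile normalization of tested probe sets, and with the mean of all probe sets of a gene the medians were -0.33, -0.40 and -0.38 on days 0, 7 and 14. Leaving out 1 array of the day gave -0.52 to -0.50, -0.57 to -0.55 and -0.55 to -0.52. Over all probe sets, 189, 234 and 188 were called between the lines on the 3 days. Quantile normalization gave 122 at day 0, fits of each day alone 15, 12 and 6, and leaving out 1 array 13 to 263, 21 to 511 and 18 to 329. The 511 came without clone wt22 at day 7 and the 329 without clone wt36 at day 14, and the lowest counts without a SaOS-2 array of the same day. The causes were not tested. Changes of 1.5-fold were mostly missed in simulated data, which limits what absence of a call means. A change of that size lies on the threshold of a call, so part of these misses was fixed by the rule. Only the clone contrast and day 14 minus day 0 in SaOS-2 were simulated.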

Other observations

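Genes of chromosome 18 outside the list also differed between the clones by the limma test, and the ones named here were chosen after their values were seen. In the stretch from ROCK1 to KCTD1, NPC1, the lysosomal cholesterol transporter, was lower in wt36 than in wt22 by -0.88 on the log2 scale (SE 0.10, limma adjusted p = 0.000399), and RMC1 by -0.68 (adjusted p = 0.00304). Further along 18q, LIPG, the endothelial lipase, was higher in wt36 than in wt22 by 2.01 (limma adjusted p = 6.97e-07) and TMX3 by 0.67 (adjusted p = 0.0105). Both lay below SaOS-2 in both clones at the mean of 3 days. LIPG was at -3.02 in wt22 and -1.01 in wt36, and TMX3 at -0.97 and -0.31. On 18p, 2 of 27 genes tested were called, beside 5.78% of all probe sets tested. They were PTPRM, a receptor tyrosine phosphatase, at 0.95 and TMEM200C at 1.33, both higher in wt36 than in wt22. Neither was raised over SaOS-2: PTPRM was at -0.95 in wt22 and 0.00 in wt36, and TMEM200C at -1.51 and -0.18.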
